A study of Mus musculus with 17 samples.

Results

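The cytochrome P450 genes were followed in whole kidneys of 17 male mice as the rows of the expression table whose symbol has the form Cyp, a number, letters and a number, with pseudogenes left out. This gave 83 genes of the 22558 measured, among them 43 of family Cyp2, 15 of Cyp4, 6 of Cyp3, 3 of Cyp1, 1 of Cyp20, 4 that handle vitamin D, 3 that clear retinoic acid and 8 that act on steroids and bile acids. No filter on expression was set on membership. The spelling leaves out Cyp51, Cyp4a12a and Cyp4a12b. Cyp11b1, Cyp11b2 and Cyp19a1 fit the spelling but are not among the 22558 genes measured.

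Cytochrome P450 enzymes are haem proteins that insert an oxygen atom into drugs, fatty acids, sterols and vitamins. Most sit in the endoplasmic reticulum and take electrons from the reductase Por, while the mitochondrial ones take them from ferredoxin (Fdx1) and its reductase (Fdxr). The kidney is known for Cyp27b1, which makes active vitamin D (calcitriol), for Cyp24a1, which breaks it down, for the Cyp4a enzymes that hydroxylate the end carbon of fatty acids, and for Cyp2j and Cyp2c epoxygenases of arachidonic acid, most of them in the proximal tubule.

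RNA was sequenced from 5 non-diabetic mice (Ctrl, C57BL/6 wild type), 6 diabetic mice (Case, db/db, BKS.Cg-Dock7m +/+ Leprdb/J, which lack a working leptin receptor) and 6 db/db mice given dapagliflozin (Dapa), an inhibitor of the sodium-glucose cotransporter of the proximal tubule (SGLT2). Dapagliflozin was given at 1.0 mg/kg a day for 6 weeks from 8 weeks of age, and Ctrl and Case mice received saline by the same route. Each library came from 1 mouse, so the spread reported is between mice. Because the wild-type mice were C57BL/6 and the db/db mice BKS, genotype and strain cannot be told apart in any comparison with Ctrl.

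The libraries held 13039535 to 17779635 counted reads. The mitochondrial genes took 17.9 to 20.4% of the counts in Ctrl, 19.8 to 27.3% in Case and 19.7 to 27.6% in Dapa mice. Proximal tubule markers were present in every library, with a summed level of 1864 to 3635 FPKM (counted reads scaled by transcript length and by the library's total) over all mice.

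Of the 83 genes, 33 had a mean of at least 1 FPKM in a group and 50 did not. A read was counted in every mouse for 45, and 33 never had more than 10 reads in any mouse. The summed level of the 83 genes was 3780 to 4534 FPKM in Ctrl mice with a median of 4232, 1712 to 2805 with a median of 2430 in Case mice, and 1464 to 3410 with a median of 2464 in Dapa mice. Every db/db mouse, treated or not, thus lay below every Ctrl mouse. As a share of all counts the family took 0.90 to 1.08% in Ctrl, 0.40 to 0.69% in Case and 0.37 to 0.83% in Dapa mice.

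The total rested on few genes. Cyp2e1, Cyp4b1, Cyp2j5 and Cyp2a4 together made up 64.2 to 76.2% of the summed FPKM in Ctrl mice, 39.9 to 61.7% in Case and 37.9 to 51.1% in Dapa mice. Cyp2e1 alone, which oxidises ethanol, acetone and other small molecules, gave 26.8 to 33.6%, 16.9 to 31.2% and 12.6 to 22.0%. Cyp4a14 (249 ± 61.0 FPKM in Ctrl, SD, n = 5), Cyp4a10 (234 ± 63.5), Cyp2d9 (164 ± 20.7) and Cyp2d26 (90.7 ± 20.7) were also among the 10 most abundant per length over all mice. At the other end, the 4 Cyp2b genes summed to at most 0.376 FPKM and the 6 Cyp3a genes to at most 1.42 FPKM in any mouse.

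**Figure D1:**
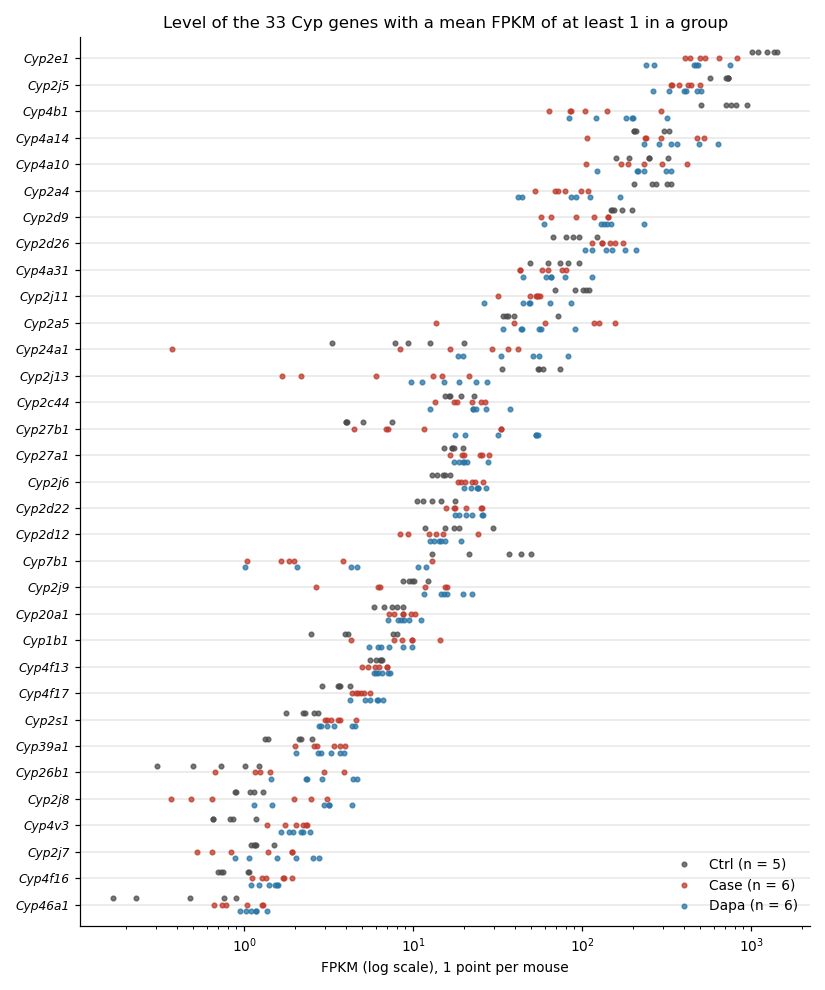
Level in FPKM (x axis, log scale) of the 33 P450 genes with a mean of at least 1 FPKM in a group, ordered by their mean over all mice, with 1 point per mouse and Ctrl, Case and Dapa mice in separate colours and rows. The Ctrl points of Cyp2e1 (1013 to 1422 FPKM), Cyp4b1, Cyp2j5 and Cyp2a4 lie to the right of all Case and Dapa points, while those of Cyp27b1 lie to the left of all Dapa points.

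Case mice were compared with Ctrl mice, a contrast of diabetic BKS db/db with non-diabetic C57BL/6 mice. Of 44 genes that passed the filter on low counts, 6 were higher at q under 0.05 in Case mice and 7 were lower, where q is the Benjamini-Hochberg adjusted p over all genes tested by edgeR's quasi-likelihood test. Over all 14582 genes tested, 6.09% were higher and 6.91% lower. With a fold above 2 between mean FPKM required as well, 1 P450 gene was higher and 5 were lower, against 2.33% and 1.46% of all genes. In 6 genes every Case mouse was above every Ctrl mouse and in 7 every Case mouse was below, against 4.97% and 3.46% of all genes. The median log2 fold change of the 44 genes was 0.24, that of all genes 0.03.

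The 7 genes that fell, Cyp2a4, Cyp2e1, Cyp2j5, Cyp2j11, Cyp2j13, Cyp4b1 and Cyp7b1, passed the test in each of 20 alternative analyses, and so did Cyp4v3 among the 6 that rose. The other 5 that rose, Cyp2d22, Cyp2d26, Cyp2j6, Cyp2s1 and Cyp4f16, lost their call when Ctrl replicate 3 was left out, which brought the count of called genes from 13 to 8.

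The effect of the drug in diabetic mice was addressed by Dapa against Case. None of 43 P450 genes passed at q under 0.05 in edgeR's quasi-likelihood test, as for all genes tested (0%), and DESeq2 and edgeR's exact test called 0 of the 43 as well, while over all genes they called 202 and 125. At an unadjusted p under 0.05, 1 of the 43 stood out, Cyp27b1, against 12.9% of all genes. In none of them did every Dapa mouse lie above, or below, every Case mouse (0.316% and 0.165% of all genes). The smallest q of a P450 gene was 0.334.

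Dapa mice were also set beside Ctrl mice. Of 42 genes tested 15 were higher and 7 lower at q under 0.05, against 14.2% and 14.9% of all genes. With the fold above 2 these became 7 and 5, against 5.05% and 2.12%, and 7 and 6 genes had groups without overlap, against 9.79% and 4.74%. The comparisons of Case and of Dapa with Ctrl share the same 5 Ctrl mice, so their values are given side by side and not as separate evidence. The median log2 fold change was 0.30 for the 42 genes and 0.02 for all genes.

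**Figure D2:**
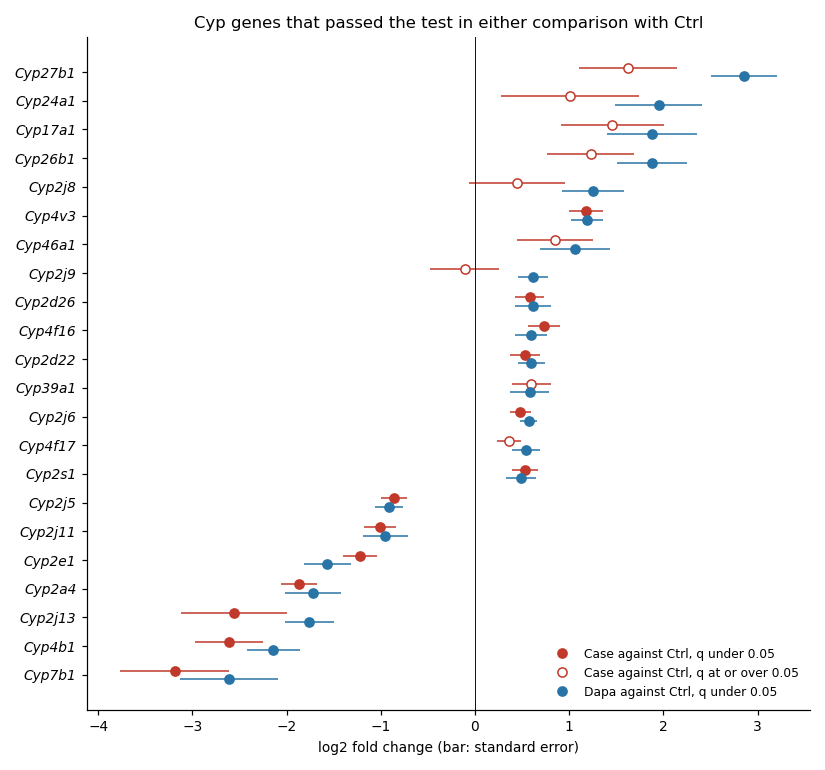
Log2 fold change against Ctrl (x axis; bars, standard error) of the 22 P450 genes that passed the test in Case or Dapa mice, with filled points for q under 0.05 and open points otherwise. Cyp7b1 (-3.19 in Case and -2.61 in Dapa) and Cyp4b1 (-2.61 and -2.14) lie lowest, and Cyp27b1 (1.63 and 2.86) highest.

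Cyp2e1 was at 1099, 1422, 1238, 1013 and 1367 FPKM in the 5 Ctrl mice. The lowest, median and highest levels were 407, 516 and 828 FPKM in Case mice and 238, 466 and 751 FPKM in Dapa mice. No db/db mouse reached the lowest Ctrl mouse. The log2 fold change was -1.22 ± 0.18 (SE, q = 0.00156 from edgeR) in Case and -1.57 ± 0.25 (q = 0.00101) in Dapa mice, a fall of 2.33-fold and 2.97-fold, and -0.34 ± 0.26 (q = 0.587) for Dapa against Case. At this level of the tissue, fewer cells of a type and less RNA per cell cannot be told apart, for this gene or any below.

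Cyp4b1, a fatty acid and xenobiotic hydroxylase known from lung and kidney, was at 759, 817, 714, 503 and 945 FPKM in Ctrl mice. In Case mice it ranged from 64.1 to 294 FPKM around a median of 95.1, and in Dapa mice from 83.3 to 319 around 189.5. The groups did not overlap with Ctrl, and within Case 1 mouse, replicate 5, held the 294 FPKM. The gene was 6.11-fold lower in Case (log2 fold change -2.61 ± 0.36, q = 0.00102 from edgeR) and 4.40-fold lower in Dapa mice (-2.14 ± 0.28, q = 0.00042).

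Cyp7b1, the hydroxylase of oxysterols and of dehydroepiandrosterone, had the lowest log2 fold change of the tested genes of the set in both db/db groups. Its levels in Ctrl mice were 12.8, 21.4, 43.7, 37.1 and 49.8 FPKM, against a lowest, median and highest of 1.05, 1.90 and 12.9 FPKM in Case and 1.01, 4.47 and 11.9 FPKM in Dapa mice. Ctrl replicate 1 and Case replicate 3 met at the same level, and all other Case and all Dapa mice were below Ctrl. The fall was 9.12-fold in Case (log2 fold change -3.19 ± 0.58, q = 0.00459 from edgeR) and 6.11-fold in Dapa mice (-2.61 ± 0.52, q = 0.00341). Without Case replicate 3 the fall in Case mice was 16.7-fold (-4.06, q = 0.000249). Cyp51, the lanosterol demethylase of cholesterol synthesis, which its spelling keeps out of the set, was at 35.5 to 79.6 FPKM in Ctrl, 5.30 to 10.2 in Case and 5.59 to 12.6 in Dapa mice. It was lower in Case (-2.87 ± 0.23, q = 4.67e-05 from edgeR) and in Dapa mice (-2.64 ± 0.24, q = 8.68e-05), and no db/db mouse reached the lowest Ctrl mouse.

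**Figure D3:**
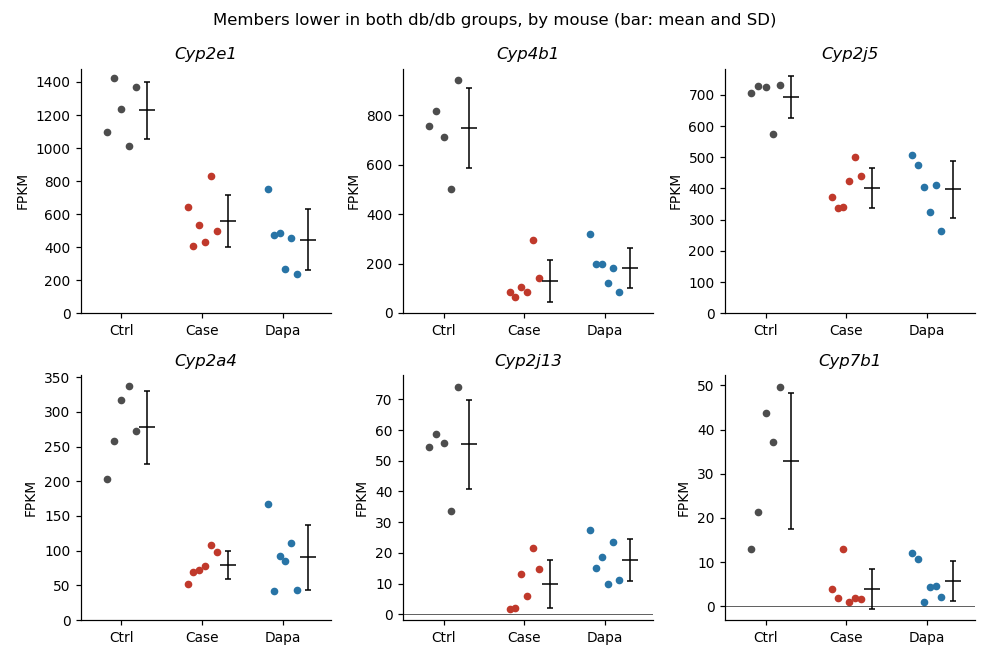
FPKM (y axis, linear, from 0) of 6 P450 genes that were lower in both db/db groups, with 1 point per mouse (5 Ctrl, 6 Case, 6 Dapa) and the mean and SD beside each group. In Cyp2e1, Cyp4b1, Cyp2j5, Cyp2a4 and Cyp2j13 no Case or Dapa point reaches the lowest Ctrl point, and in Cyp7b1 the Case mouse at 12.9 FPKM does.

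Cyp2a4, a steroid hydroxylase, and Cyp2a5, which hydroxylates coumarin, are near-identical genes on chromosome 7 (Cyp2a4 at chr7:26307169-26315088 and Cyp2a5 at chr7:26835305-26843548, mm10). Their coding sequences of 1485 bases in GENCODE release M21 differ at 23 positions (98.5% identity), and 36.1% of the 50-base stretches of Cyp2a4 transcripts also occur in Cyp2a5. How reads that fit both were shared out is not given in the sources used here. The 120 coding bases with the most differences, 6, run from position 550 to 669 counted from the A of the start codon. They are printed with the differing bases in capitals to show what a read has to tell the pair apart.
Cyp2a4: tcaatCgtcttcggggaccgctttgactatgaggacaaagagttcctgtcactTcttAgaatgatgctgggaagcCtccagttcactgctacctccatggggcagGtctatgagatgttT
Cyp2a5: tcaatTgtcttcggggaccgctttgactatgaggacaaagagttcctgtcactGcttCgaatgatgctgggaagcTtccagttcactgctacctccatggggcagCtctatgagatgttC

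As counted, Cyp2a4 was at 203, 258, 317, 338 and 273 FPKM in Ctrl mice, at 52.5 to 108 FPKM (median 75.3) in Case and at 41.8 to 167 FPKM (median 89.0) in Dapa mice. Every db/db mouse was below Ctrl, with log2 fold changes of -1.87 ± 0.19 (q = 0.000194 from edgeR) and -1.72 ± 0.30 (q = 0.00175). Cyp2a5 was at 34.2 to 72.0 FPKM in Ctrl, 13.7 to 156 in Case and 33.9 to 90.3 in Dapa mice, overlapping throughout, and did not pass (0.91 ± 0.49, q = 0.242, and 0.21 ± 0.25, q = 0.572). Cyp2a5 was added to the named genes after its values were seen. The summed reads of the pair do not depend on how reads were divided between the genes. They do depend on whether shared reads were dropped or counted for both, which is not given in the sources used here. In CPM, reads scaled to the library's total, they were at 461 to 778 in Ctrl mice, with a median of 599. Case mice ranged from 168 to 613 around 422, and Dapa mice from 184 to 430 around 333. On this measure 3 of 6 Case and 6 of 6 Dapa mice lay below all Ctrl mice, so that the Case and Ctrl groups overlapped.

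The 8 Cyp2j genes lie side by side on chromosome 4 (chr4:96027534-96664154, mm10), and neighbours moved in opposite directions. Cyp2j enzymes epoxidise arachidonic acid, and Cyp2j5 is the abundant renal member. In Case mice 3 of 7 tested fell (Cyp2j5, Cyp2j11 and Cyp2j13) and 1 rose (Cyp2j6), against 6.91% and 6.09% of all genes. In Dapa mice the same 3 were lower than in Ctrl and 3 were higher (Cyp2j6, Cyp2j8 and Cyp2j9), against 14.9% and 14.2%. The 150 bases upstream of these 6 are printed here as RefSeq and the files place the gene starts (GRCm38.p6, minus strand, 5′ to 3′, in chromosomal order of the genes). Capitals mark CAAAG on either strand, the core of known HNF4A binding motifs. HNF4A is the main nuclear receptor of the proximal tubule.
Cyp2j13 (chr4:96077548-96077697): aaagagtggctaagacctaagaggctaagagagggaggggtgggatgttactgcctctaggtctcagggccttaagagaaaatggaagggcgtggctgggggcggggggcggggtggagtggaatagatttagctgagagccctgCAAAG
Cyp2j11 (chr4:96348681-96348830): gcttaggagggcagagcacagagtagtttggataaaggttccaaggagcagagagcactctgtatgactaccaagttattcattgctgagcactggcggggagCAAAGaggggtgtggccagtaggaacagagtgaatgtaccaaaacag
Cyp2j8 (chr4:96507398-96507547): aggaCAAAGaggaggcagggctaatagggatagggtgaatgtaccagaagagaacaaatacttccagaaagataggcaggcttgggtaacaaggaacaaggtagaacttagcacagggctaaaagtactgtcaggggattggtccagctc
Cyp2j6 (chr4:96553662-96553811): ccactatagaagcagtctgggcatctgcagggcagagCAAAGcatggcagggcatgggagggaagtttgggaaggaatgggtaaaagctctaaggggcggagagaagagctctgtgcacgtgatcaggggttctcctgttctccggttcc
Cyp2j9 (chr4:96591579-96591728): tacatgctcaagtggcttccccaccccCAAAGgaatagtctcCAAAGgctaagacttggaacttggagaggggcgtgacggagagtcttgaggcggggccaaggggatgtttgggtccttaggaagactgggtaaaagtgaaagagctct
Cyp2j5 (chr4:96664155-96664304): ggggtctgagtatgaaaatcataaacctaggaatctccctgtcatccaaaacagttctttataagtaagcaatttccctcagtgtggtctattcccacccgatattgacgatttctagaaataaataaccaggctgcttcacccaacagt

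The letters CAAAG were present in the printed stretch of 5 of the 6 genes, 3 that were higher and 2 that were lower in Dapa mice, and not in that of Cyp2j5. They occur in 31.5% of the 150-base stretches directly before all 32851 RefSeq starts, whereas the printed stretches of Cyp2j6, Cyp2j5 and Cyp2j9 begin 10, 35 and 93 bases farther upstream, where the files start the gene. Within 250 bases of the RefSeq start all 6 genes hold at least 1 match. Over 250 bases they were found before 60 of 71 listed starts of 64 P450 genes, against 48.6% of all starts. Matches on both strands were counted, and related promoters of neighbouring genes share ancestry. A match is a description of these letters and was not tested against any binding data. Hnf4a RNA itself was 108 FPKM in Ctrl, 87.7 in Case (log2 fold change -0.38 ± 0.13, q = 0.0616 from edgeR) and 78.7 in Dapa mice (-0.57 ± 0.14, q = 0.00883).

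Cyp2j5 was at 705, 728, 725, 574 and 730 FPKM in Ctrl mice, 336 to 500 (median 398.5) in Case and 263 to 508 (median 406.5) in Dapa mice. All Ctrl mice exceeded all db/db mice, with log2 fold changes of -0.86 ± 0.14 (q = 0.00232 from edgeR) and -0.91 ± 0.15 (q = 0.00143). Cyp2j13, at the other end of the cluster, fell further: 54.6, 58.8, 55.6, 33.6 and 74.2 FPKM in Ctrl mice stood against 1.68 to 21.5 in Case (-2.56 ± 0.56, q = 0.0121) and 9.77 to 27.4 in Dapa mice (-1.76 ± 0.26, q = 0.00071). Cyp2j11 went from 68.7 to 110 FPKM in Ctrl to 31.95 to 56.2 in Case (-1.01 ± 0.17, q = 0.00303) and 26.1 to 85.4 in Dapa mice (-0.95 ± 0.24, q = 0.00994), where 5 of 6 mice lay below Ctrl. The fall of Cyp2j13 in Case mice was larger with a term for the libraries in which rows split over lines were garbled (-3.79) and with the replicate block (-3.26).

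Between them on the chromosome, Cyp2j6 rose a little but evenly. It was at 15, 15.4, 13.0, 16.5 and 13.8 FPKM in Ctrl mice, 18.6 to 26 in Case (log2 fold change 0.48 ± 0.11, q = 0.0161 from edgeR) and 20.02 to 27.1 in Dapa mice (0.57 ± 0.09, q = 0.0013), without overlap with Ctrl. Its call in Case mice was lost in 3 of 20 alternatives, those without Ctrl replicate 3 or 5 and the term for the libraries of the garbled rows. Cyp2j9 and Cyp2j8 were spread widely in Case mice, at 2.65 to 15.9 and 0.372 to 3.08 FPKM against 8.68 to 12.2 and 0.887 to 1.29 in Ctrl mice, with Case mice both above and below all Ctrl mice. In Dapa mice they were at 11.7 to 22.5 and 1.15 to 4.37 FPKM and passed against Ctrl (0.62 ± 0.16, q = 0.0113, and 1.25 ± 0.33, q = 0.0138) but not against Case (0.74 ± 0.35, q = 0.395, and 0.81 ± 0.51, q = 0.508). Both calls were lost with all 3 groups in one fit (q = 0.177 and 0.0667). The 6 genes share few 50-base stretches with other transcripts, at most 1.34% (Cyp2j11).

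**Figure D4:**
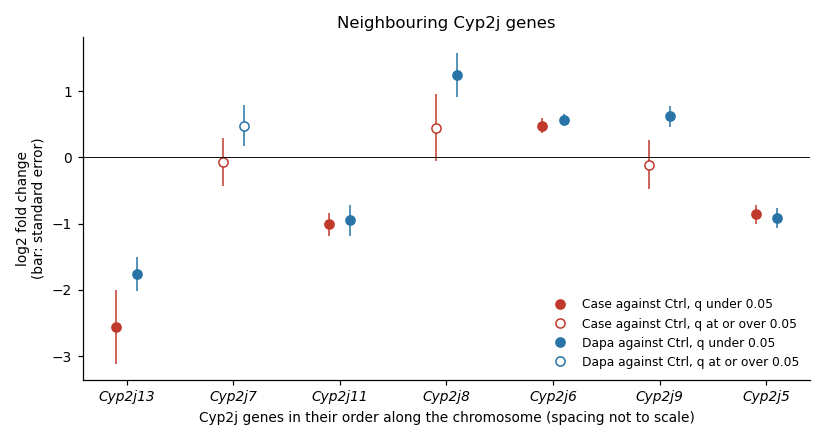
Log2 fold change against Ctrl (y axis; bars, standard error) of the 7 tested Cyp2j genes in their order on chromosome 4, spacing not to scale, with filled points for q under 0.05. Cyp2j13, Cyp2j11 and Cyp2j5 lie below 0 in both Case and Dapa mice, and Cyp2j6, between Cyp2j8 and Cyp2j9, lies above 0 in both.

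In the Cyp2d group, whose human counterpart handles many drugs, 2 of 5 tested genes were higher in Case and in Dapa mice. Over all genes these shares were 6.09% and 14.2%. The median log2 fold change of the 5 was -0.45 in Case and 0.25 in Dapa mice. The summed level of all 8 Cyp2d genes had medians of 302, 291 and 328 FPKM in Ctrl, Case and Dapa mice. Cyp2d26 went from 66.8 to 122 FPKM in Ctrl mice (median 88.7) to 114 to 175 in Case (139) and 104 to 208 in Dapa mice (144), with 5 of 6 Case and 4 of 6 Dapa mice above all Ctrl mice. The log2 fold changes were 0.58 ± 0.15 (q = 0.0223 from edgeR) and 0.62 ± 0.19 (q = 0.0248), and the call was lost in 5 of 20 alternatives in Case and 4 of 19 in Dapa mice. These were, in both, the term for the libraries of the garbled rows and those without Ctrl replicate 1, 2 or 3, and in Case mice also that without Ctrl replicate 5. Cyp2d22 followed with 10.5 to 17.8, 15.7 to 25.6 and 17.7 to 25.9 FPKM (0.53 ± 0.16, q = 0.0433, and 0.60 ± 0.14, q = 0.00702), and its call in Case mice was lost in 11 of 20 alternatives. Cyp2d9, a testosterone hydroxylase, was below all Ctrl mice (148 to 197 FPKM) in every Case mouse (57.3 to 143) but missed the threshold (-0.74 ± 0.24, q = 0.0559), and overlapped Ctrl in Dapa mice (59.5 to 231). Cyp2d9 shares 21.8% of its 50-base stretches with other genes, so its counts are less certain.

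Cyp2s1, a Cyp2 gene of epithelia, was at 1.77 to 2.73 FPKM in Ctrl mice and at 3.03 to 4.58 in Case and 2.78 to 4.50 in Dapa mice, all above Ctrl (log2 fold change 0.53 ± 0.14, q = 0.0267, and 0.49 ± 0.16, q = 0.0351, from edgeR). Its call in Case mice was lost in 4 of 20 alternatives, the replicate block and those without Ctrl replicate 1, 3 or 5, and in Dapa mice in 5 of 19, those without Ctrl replicate 1, 3 or 5 or Dapa replicate 8 or 10. Cyp2c44, a renal arachidonic acid epoxygenase and the 1 abundant gene of 13 in Cyp2c, did not pass in any comparison. Its levels were 15.4 to 23.0 FPKM in Ctrl, 13.5 to 26.5 in Case and 12.6 to 37.7 in Dapa mice.

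None of the tested Cyp4a genes of the set passed in any comparison. There were 4 tested in Case against Ctrl and in Dapa against Case, and 3 in Dapa against Ctrl. Over all genes 6.09% were higher and 6.91% lower in Case against Ctrl, and 14.2% and 14.9% in Dapa against Ctrl. In Dapa against Case 0% of all genes passed. Cyp4a12a and Cyp4a12b, which only their spelling keeps out of the set, were lower in Case mice (log2 fold change -2.40 ± 0.27, q = 0.00028, and -1.07 ± 0.29, q = 0.0285, from edgeR), so the lack of a call does not cover the subfamily as a whole. In Dapa against Ctrl their values were -1.80 ± 0.19 (q = 0.000139) and -0.40 ± 0.20 (q = 0.157). Cyp4a14 was at 202 to 325 FPKM in Ctrl mice, 106 to 525 in Case and 233 to 635 in Dapa mice, and Cyp4a10 at 159 to 324, 106 to 416 and 123 to 336 FPKM. Their spread between Case mice was wide, with coefficients of variation of 51.0% and 46.6% against 24.5% and 27.1% in Ctrl. The log2 fold change in Case mice was 0.26 ± 0.33 for Cyp4a14 and -0.06 ± 0.29 for Cyp4a10, so changes of either sign remain within the error. Cyp4a31 (49.2 to 96.2, 42.7 to 80.6 and 44.9 to 114 FPKM) did not pass either. Cyp4a10 and Cyp4a31 share 29.8% and 20.6% of their 50-base stretches with other genes, Cyp4a14 only 0.235%.

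Of the 10 tested Cyp4 genes 2 were higher in Case mice, Cyp4v3 and Cyp4f16, and of 9 tested 3 in Dapa mice, against 6.09% and 14.2% of all genes. Cyp4v3, a fatty acid hydroxylase whose human counterpart CYP4V2 is mutated in a retinal dystrophy, was at 0.864, 0.650, 0.827, 1.17 and 0.658 FPKM in Ctrl mice. It was at 1.36 to 2.36 FPKM in Case (log2 fold change 1.18 ± 0.18, q = 0.00158 from edgeR) and 1.65 to 2.47 in Dapa mice (1.19 ± 0.17, q = 0.000567). Each db/db mouse lay above each Ctrl mouse. Cyp4f16 behaved alike at 0.702 to 1.07, 1.11 to 1.92 and 1.11 to 1.58 FPKM (0.73 ± 0.17, q = 0.0172, and 0.60 ± 0.17, q = 0.0175), with its call in Case mice lost in 3 of 20 alternatives, the term for the libraries of the garbled rows, the replicate block and that without Ctrl replicate 3. Cyp4f17, its neighbour on chromosome 17, was at 2.89 to 4.22 FPKM in Ctrl and 4.36 to 5.58 in Case mice without overlap, and passed in Dapa mice (0.54 ± 0.15, q = 0.0199) but not in Case mice (0.36 ± 0.13, q = 0.0918). Its call in Dapa mice was lost without Ctrl replicate 5 (q = 0.0524). Cyp4f16 shares 17.4% of its 50-base stretches with other genes, so its counts are less certain. Cyp4f14 (-0.89 ± 0.35, q = 0.112 in Case) and Cyp4f13 (-0.10 ± 0.10, q = 0.571) were named after their values were seen, and neither passed.

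Of the vitamin D genes, 2 of 3 tested were higher in Dapa against Ctrl, Cyp27b1 and Cyp24a1, against 14.2% of all genes. None of the 4 tested in Case against Ctrl passed, where 6.09% of all genes were higher and 6.91% lower. Cyp27b1, which makes calcitriol in the proximal tubule, lies at chr10:127048250-127053006 (mm10). The 150 bases before its RefSeq start are printed because the gene had the largest fold change among P450 genes tested in Dapa mice (GRCm38.p6, plus strand, capitals as above).
Cyp27b1 (chr10:127048096-127048245): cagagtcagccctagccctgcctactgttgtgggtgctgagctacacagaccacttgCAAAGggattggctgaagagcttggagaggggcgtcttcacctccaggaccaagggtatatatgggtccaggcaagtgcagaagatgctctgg

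Cyp27b1 was at 7.54, 4.00, 5.02, 3.98 and 4.04 FPKM in Ctrl mice. The 6 Case mice fell apart, with 33.0 and 33.3 FPKM in replicates 1 and 4 and 4.49 to 11.6 in the other 4. The 6 Dapa mice were at 17.6 to 54.8 FPKM with a median of 42.7, all above Ctrl, and overlapped Case. The log2 fold change was 2.86 ± 0.35 in Dapa mice (7.28-fold, q = 0.000289 from edgeR) and 1.63 ± 0.52 in Case mice (q = 0.0552), the latter passing in 6 of 20 alternatives. Against Case it was 1.24 ± 0.51 in Dapa mice, with an unadjusted p = 0.0278 from edgeR's quasi-likelihood test and q = 0.334.

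Cyp24a1, which inactivates vitamin D and is a known target of its receptor, was at 9.33, 12.5, 3.31, 20.02 and 7.77 FPKM in Ctrl mice. Case mice ranged from 0.373 to 41.8 FPKM (median 22.9) and Dapa mice from 18.5 to 82.3 (median 42.2). The low Case value belonged to replicate 2, and the mice with most Cyp27b1, Case replicates 1 and 4, had Cyp24a1 at 16.4 and 8.36 FPKM. In Dapa mice 4 of 6 lay above all Ctrl mice, with a log2 fold change of 1.95 ± 0.46 (3.86-fold, q = 0.00809 from edgeR). The value was 1.01 ± 0.73 (q = 0.391) in Case mice and 0.95 ± 0.68 (q = 0.560) for Dapa against Case. Over 20 alternatives that in Case mice ranged from 0.30, with the replicate block, to 1.35.

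Of the enzymes of the earlier step in vitamin D activation, Cyp27a1 did not pass in any comparison, and Cyp2r1 was tested in Case against Ctrl alone and did not pass there (0.22 ± 0.56, q = 0.836 from edgeR). Cyp27a1, which also opens a route of bile acid synthesis, was at 15.3 to 19.6 FPKM in Ctrl, 16.6 to 28.1 in Case and 17.5 to 27.9 in Dapa mice. Cyp2r1 was near the limit of detection at no more than 18 reads in a mouse.

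**Figure D5:**
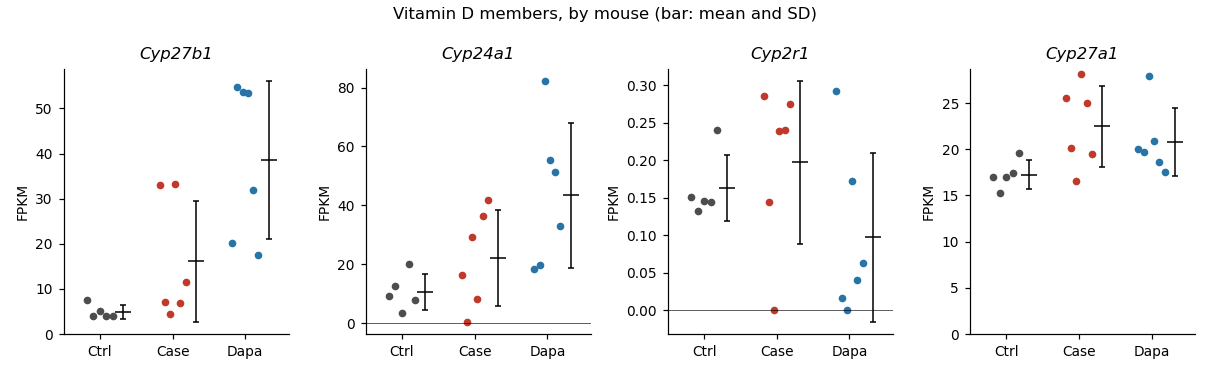
FPKM (y axes, linear) of 4 vitamin D genes, with 1 point per mouse (5 Ctrl, 6 Case, 6 Dapa) and the mean and SD beside each group. All Dapa points of Cyp27b1, from 17.6 FPKM up, lie above the Ctrl points, and 2 Case points near 33 FPKM lie far above the other 4.

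Of 13 tested genes in a list of vitamin D handling, 4 were higher and 4 lower in Case mice and 6 were higher and 6 lower in Dapa mice at q under 0.05 from edgeR. Over all genes tested 6.09% were higher and 6.91% lower in Case and 14.2% and 14.9% in Dapa mice, so that more genes passed in Dapa than in Case mice over the whole table too. The list's median log2 fold change was 0.02 in Case and -0.40 in Dapa mice. The higher ones in Case included Gc, the vitamin D binding protein (log2 fold change 3.65 ± 0.57), and the calcium carriers Calb1 (1.55 ± 0.27), S100g (1.65 ± 0.29) and Trpv5 (0.75 ± 0.20). The lower ones were the receptor Vdr (-0.61 ± 0.18), Lrp2, which takes up the binding protein (-0.98 ± 0.17), its partner Amn (-0.61 ± 0.14) and the parathyroid hormone receptor Pth1r (-0.45 ± 0.12). All 8 kept their direction and call in Dapa mice.

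Cyp26b1, which degrades retinoic acid, was at 0.306 to 1.22 FPKM in Ctrl mice, 0.669 to 3.88 in Case and 1.44 to 4.63 in Dapa mice. Every Dapa mouse was above Ctrl (log2 fold change 1.88 ± 0.37, 3.68-fold, q = 0.00297 from edgeR), while Case mice overlapped (1.23 ± 0.46, q = 0.0945). In Case mice it passed in 2 of 20 alternatives, DESeq2 and the term for the libraries of the garbled rows. Its log2 fold change there ranged from 0.88 to 1.86 over the 20. Cyp39a1 and Cyp46a1, which hydroxylate oxysterols and cholesterol, passed in Dapa mice close to the threshold (0.58 ± 0.21, q = 0.0495, and 1.06 ± 0.37, q = 0.0488), and lost their calls in 11 of 19 and 11 of 18 alternatives. Cyp46a1 rested on 6 to 41 reads a mouse.

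Cyp17a1, the hydroxylase and lyase of androgen synthesis, was counted at 1 to 11 reads in Ctrl, 5 to 26 in Case and 9 to 29 in Dapa mice. It passed in Dapa mice (log2 fold change 1.88 ± 0.48, q = 0.0122 from edgeR) but not in Case mice (1.46 ± 0.55, q = 0.101), at a level of at most 0.790 FPKM. The adrenal genes Cyp11a1 and Cyp21a1 had at most 4 and 3 reads in a mouse, near 0 in every library. Of the adrenal marker list, 1 of 3 tested genes was higher in Case and in Dapa mice, against 6.09% and 14.2% of all genes. This was Hsd3b1 (1.72 ± 0.50 in Case and 4.42 ± 0.82 in Dapa mice). Its levels were 0.0783 to 0.336 FPKM in Ctrl, 0.316 to 1.52 in Case and 0.0222 to 7.10 in Dapa mice. Its part in the Cyp17a1 result was not tested.

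Cyp1a1, the classic target of the aryl hydrocarbon receptor, was at 0.407 to 0.652 FPKM in Ctrl, 0.236 to 0.843 in Case and 0.0563 to 0.556 in Dapa mice and did not pass. Cyp1b1, which is known from stroma and vessels, was at 2.49 to 8.03, 4.30 to 14.4 and 5.52 to 9.90 FPKM and did not pass. Cyp3a11, the main drug-metabolising P450 of mouse liver, had at most 23 reads in a mouse, and 38 of the 83 genes could not be tested in any comparison.

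Partner genes were counted from lists of known function, to be read against the shares of all genes tested, 6.09% higher and 6.91% lower in Case and 14.2% and 14.9% in Dapa mice. Among 12 redox partners and haem enzymes, 4 were lower and 1 higher in Case mice at q under 0.05 from edgeR. The lower ones were Por (log2 fold change -0.53 ± 0.14), cytochrome b5 Cyb5a (-0.67 ± 0.17), its reductase Cyb5r3 (-0.37 ± 0.08) and Fdx1 (-0.43 ± 0.12), and Pgrmc1, which binds P450 enzymes, was higher (0.46 ± 0.10). In Dapa mice 5 were lower, now with the haem oxygenase Hmox1, and 2 higher, now with Fdxr. The list's median was -0.18 in Case and -0.26 in Dapa mice.

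Of 20 tested receptors and factors that control P450 genes, 2 were higher and 1 lower in Case mice. The higher ones were the xenobiotic receptors Nr1i2 (PXR, 0.77 ± 0.18) and Nr1i3 (CAR, 2.42 ± 0.54, from 0.0538 to 0.308 FPKM in the mean), and the lower one was Vdr. In Dapa mice 2 were higher and 5 lower. The counts in Case mice lie near the shares of all genes, and in Dapa mice that of higher genes lies below its share and that of lower genes above. The list's medians were -0.07 and -0.16. The enzymes that act after or beside P450 on fatty acids included Ephx2, which hydrolyses the epoxides made by Cyp2j and Cyp2c enzymes and was lower in Case mice (-0.87 ± 0.15), and Ephx1, which was higher (1.34 ± 0.23). Of the 10 tested there, 4 were higher and 2 lower in Case mice, and of 11 tested, 5 were higher and 3 lower in Dapa mice, with medians of 0.64 and 0.72. The steroid list of other enzymes had 1 higher and 5 lower of 19 in Case mice and 2 and 9 in Dapa mice, with medians of -0.65 and -0.68. Its counts of higher genes were no more than the shares of all genes give for a list of 19. The conjugation list had 5 higher and 3 lower of 24 in Case mice and 8 and 5 in Dapa mice, with medians of 0.23 and 0.01. No gene of any of these lists passed in Dapa against Case.

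Markers of kidney cells moved beside these results, and their counts too are to be read against the 6.09% higher and 6.91% lower of all genes in Case and 14.2% and 14.9% in Dapa mice. Of 7 markers of the last proximal tubule segment (S3), 4 were lower in Case and 4 in Dapa mice, with a summed level of 319.9 to 643 FPKM in Ctrl, 139 to 282 in Case and 86.7 to 315.5 in Dapa mice. The Case and Dapa ranges thus lay below the Ctrl range. The largest differences among them were in Slc22a7 (log2 fold change -6.32 ± 0.36 in Case) and Slc7a13 (-3.24 ± 0.45). Markers of the first segments (S1 and S2) had 1 of 6 lower in Case and 3 in Dapa mice, and those of all segments 3 and 6 of 8. No proximal tubule marker passed as higher at q under 0.05 from edgeR. The S3 marker Slc7a12, an amino acid transporter, went the other way without passing, at 2.06 ± 1.08 FPKM (SD, n = 5) in Ctrl, 5.31 ± 7.09 (n = 6) in Case (log2 fold change 1.27 ± 0.81, q = 0.32) and 7.45 ± 7.18 (n = 6) in Dapa mice (1.75 ± 0.64, q = 0.0549).

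Distal nephron markers had 3 of 8 higher in Case and 5 in Dapa mice, podocyte markers 2 of 5 in each, and endothelial and macrophage markers 0 of 5 and 0 of 6. Liver markers had 2 of 8 higher in Case and 1 in Dapa mice, the latter near the 14.2% of all genes, with a summed level of 33.7 to 118, 81.8 to 339 and 31.1 to 118 FPKM, and Alb was at 9.84, 10.05 and 11.95 FPKM in the mean. Red cell markers had 3 of 3 higher in both. Of T cell, B cell and fat markers only 1 of 5, 0 of 3 and 1 of 5 could be tested in Case against Ctrl, and none of those passed. The part of cell composition in the P450 results was not tested.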

How the data were processed

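The authors deposited, for every gene and mouse, a whole-number read count and an FPKM value. Per the methods, poly(A) RNA of whole kidney was made into strand-specific libraries and aligned to mm10 with HISAT2. Whether counting used strand, how reads shared by similar genes were assigned and which annotation release was used is not given in the sources used here. The methods name TMM scaling before FPKM, but the deposited FPKM equal count over library total and length within 0.0018% and hold no such factor. Of 22561 genes, 3 whose rows were split over lines (none a P450 gene) were left out, which left 22558.

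Tests ran on the counts, 2 groups at a time, by the quasi-likelihood functions of edgeR 4.0.16 under R 4.3.3 after filterByExpr and TMM, with Benjamini-Hochberg adjustment over all genes tested. FPKM served for levels, and SE is the size of the log2 fold change over the square root of F. The code was tested on simulated data. Other settings tried were the exact test of edgeR, DESeq2 1.42.0, other scalings and filters, all 3 groups in one fit, a term for the 8 libraries in which the split rows were garbled, the replicate number as a block, a fold above 2, and each mouse left out. No pair of libraries agreed within sampling noise.

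Named genes were those with q under 0.05 in any comparison, the 10 most abundant, and 18 measured genes chosen by textbook role. The P450 genes, lists and tests were chosen with earlier results of these data known. Promoters came from RefSeq (GRCm38.p6) and coding sequences from GENCODE release M21. Intervals and spreads cover only these mice.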

Additional observations from a re-analysis of the deposited data

Results flagged for a closer look

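In 92 groups of mice tested gene by gene for a value far from the rest (Dixon's criterion at 95%), 5 stood apart, and chance alone gives about 1 in 20. Cyp27a1 was at 27.9 FPKM in Dapa replicate 9, against 17.5 to 20.9 in the other Dapa mice. Cyp2j11 was at 32 FPKM in Case replicate 3, against 49.2 to 56.2 in the other Case mice. Cyp2j5 was at 574 FPKM in Ctrl replicate 4, against 705 to 730 in the other Ctrl mice. Cyp4b1 was at 294 FPKM in Case replicate 5, against 64.1 to 140, and Cyp7b1 at 12.9 FPKM in Case replicate 3, against 1.05 to 3.86. The calls of Cyp2j5, Cyp2j11, Cyp4b1 and Cyp7b1 in Case against Ctrl held with each mouse left out.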

How the results depend on the processing

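In Case against Ctrl 13 P450 genes passed, and 8 (without Ctrl replicate 3) to 16 (without Case replicate 5) passed with a mouse left out. With a fold above 2 required, 6 passed in Case and 12 of 22 in Dapa against Ctrl. In Dapa against Case 0 passed under every alternative run. The replicate numbers do not pair the mice (correlations of deviations from -0.057 to -0.014), and with the replicate block 11 passed in Case against Ctrl, 10 of them among the 13. No direction was reversed among called genes.

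Over all genes, 1895 passed in Case against Ctrl, but 707 with the replicate block, 751 with the term for the libraries of the split rows, and 1002 to 2154 with a mouse left out. In Dapa against Case 0 passed over all genes, against 202 by DESeq2 and 125 by edgeR's exact test. There 5 passed with all 3 groups in one fit, and 0 to 7 with a mouse left out. With no filter on low counts 13 and 22 P450 genes passed in Case and Dapa against Ctrl, 12 and 20 of them called with it. After the filter on low counts 38 of the 83 genes were not tested in any comparison, and for these low or absent expression and limited depth cannot be told apart.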
